A study of Bos taurus with 2 samples.

Results

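Cells that carried RNA of both PTN and SFRP2, 2 genes for secreted signalling proteins, were described in single-cell RNA profiles of day 25 bovine chimeric embryos. A cell was a member if its barcode held at least 2 PTN and at least 1 SFRP2 UMI (unique molecular identifiers, which count single RNA molecules). It also had to hold fewer than 4 UMI of RSPO1, RSPO2 and RSPO3 together, the R-spondin genes, and fewer than 10 of COL1A1, COL1A2 and COL3A1 together, the fibrillar collagen genes. Of 4159 barcodes kept with at least 1000 UMI and at least 500 genes, 225 were members. Replicate 1 gave 101 members of 1843 kept barcodes, and replicate 2 gave 124 of 2316.

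The embryos had received bovine embryonic stem cells, were cut up and digested with papain at day 25, and their cells were sorted and loaded on the 10x Genomics 3′ v3.1 platform. A total of 6 barcode sequences occurred in both libraries, 1 of them a member. Both libraries belong to that 1 group, and no embryo without added stem cells was analysed here. The labels give neither the sort gate nor which embryos went into which library. The p-values therefore rest only on how far differences between members and other barcodes vary between these libraries. That spread is shared across genes and may be technical. Values below are given for replicate 1 and then replicate 2, as CPM, the UMI of a gene scaled to 1000000 UMI of the summed group.

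Neural progenitors are the dividing cells of the neural tube wall from which neurons and later glia arise, and SOX2 is a transcription factor that marks them. Their fate depends on position: WNT and BMP signals act from the dorsal side and Hedgehog from the ventral floor plate. PTN (pleiotrophin) is a heparin-binding growth factor whose receptors include PTPRZ1, ALK and the syndecans. SFRP2 is a secreted frizzled-related protein that binds WNT ligands and modulates their signal, while R-spondins strengthen that signal.

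The members amounted to 5.48% of kept barcodes in replicate 1 (exact Clopper-Pearson 95% interval 4.49 to 6.62%) and 5.35% in replicate 2 (4.47 to 6.35%), a mean of 5.42% ± 0.0892 (SD, n = 2). Intervals cover counting error only. At least 2 PTN UMI were found in 289 and 359 barcodes, at least 1 SFRP2 UMI in 375 and 498, and both in 119 and 156. Of these, 16 and 25 were left out for R-spondin and 2 and 7 for collagen. The gate thus set aside few of the barcodes that carried both RNAs.

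As the rule fixes, PTN stood at 781 and 649.8 CPM in members, against 107 and 112 CPM in all other kept barcodes. SFRP2 had 308 and 274 CPM in members and 52.1 and 46.1 CPM in all other kept barcodes. The members were chosen by these values, which are a description with no test. Single members held 2 to 49 PTN UMI in replicate 1 and 2 to 26 in replicate 2, and 1 to 16 and 1 to 7 SFRP2 UMI.

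Depth differed between the groups. Members had a median of 8802 and 8383 UMI per barcode, against 5038.5 and 5793 UMI in all other kept barcodes. The share of members was 1.39% and 2.25% among barcodes of 1000 to 3000 UMI, 2.23% and 3.11% from 3000 to 6000, 9.16% and 7.23% from 6000 to 10000, and 13.3% and 9.41% from 10000 to 20000. None of the 10 and 16 barcodes above 20000 UMI was a member, which allows shares up to 30.8% and 20.6%. The highest gene count of any kept barcode was 3999 in replicate 1 and 3998 in replicate 2. Barcodes with at least 100 UMI of the globin gene HBZ, 9 and 22 in number, had median depths of 27366 and 23270.5 UMI. The part of gene count and cell class in the share above 20000 UMI was not tested. When each barcode was thinned to 2000 UMI, leaving out shallower ones, 18 of 1653 and 28 of 2101 passed the same gate, or 1.09% and 1.33%. The size of the class therefore depends on sequencing depth, and doublets (2 cells under 1 barcode) were not removed. Mitochondrial RNA made up 0.356% and 0.301% of UMI in members and 0.670% and 0.585% in all other kept barcodes, and ribosomal protein RNA 18.7% and 20.3% in members and 12.2% and 15.6% in all other kept barcodes. The part of depth and RNA composition in the differences below was not tested beyond the depth windows given with them.

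**Figure D1:**
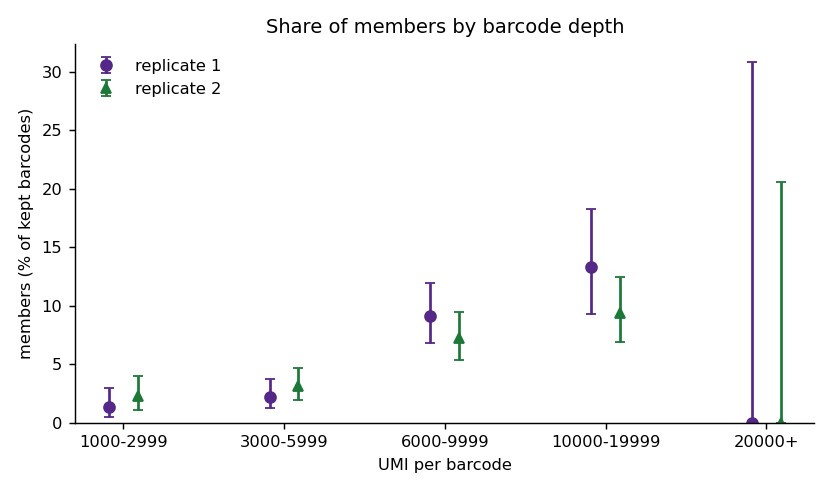
Members as a percentage of kept barcodes (vertical axis) in 5 ranges of UMI per barcode (horizontal axis), for replicate 1 (circles) and replicate 2 (triangles), with exact 95% intervals as bars. The share is lowest at 1000 to 3000 UMI (1.39% and 2.25%), reaches 13.3% and 9.41% at 10000 to 20000 UMI, and is 0 in the few barcodes above that.

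The label of neural progenitor was checked against marker genes. SOX2 had at least 1 UMI in 83.2% and 84.7% of members, against 52.8% and 56.9% of all other kept barcodes; after thinning to 2000 UMI the shares were 45.9% and 57.9% of members and 32.8% and 35.2% of the others. In barcodes with at least 50 collagen UMI, a class that should lack the gene, SOX2 was found in 6.25% and 4.62% at median depths of 12323 and 12773 UMI. All 14 neural progenitor markers in the table were detected in members, with a summed level of 6195 and 5960 CPM, against 3936 and 4342 CPM in all other kept barcodes. Collagen barcodes reached 3407 and 4000.3 CPM for the same sum, so the sum alone does not separate the classes; SOX2 had 5.62 and 3.75 CPM and HES5 5.62 and 7.49 CPM in them. With SOX2, HES5 and PHGDH all present, the members are called neural progenitor-like. The marker lists, HES5 and PHGDH included, were chosen with earlier results of these data known. Neither the presence of HES5 and PHGDH nor the tests on them below give the label independent support.

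The first comparison set members against all other kept barcodes of the same library. RNA of 12 of 14 progenitor markers, 4 of 8 dorsal neural tube genes and 8 of 12 serine and one-carbon genes was higher in members, and RNA of placental, blood, epithelial and floor plate markers and of 9 of 12 neuron markers was lower, where 9.97% of all genes tested were higher and 10.1% lower. HES5, a repressor that Notch signalling switches on in progenitors, had 239 and 182 CPM in members, against 76.6 and 82.7 CPM in all other kept barcodes. PHGDH, the first enzyme of serine synthesis, had 428 and 379.8 CPM in members, against 157 and 155 CPM in all other kept barcodes. Both libraries gave higher values in members, without overlap, and the fitted levels were 2.83-fold higher for HES5 and 2.79-fold higher for PHGDH (SE of the log2 fold changes 0.13 and 0.11; edgeR, adjusted p = 6.6e-30 and 1.7e-39).

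In that fit, 1321 genes, 9.97% of 13250 tested, were higher in members and 1344, 10.1%, were lower (edgeR quasi-likelihood test, Benjamini-Hochberg adjusted p under 0.05). The fit had 4 summed profiles and 1 residual degree of freedom, so its p-values rest on a spread shared across genes, and DESeq2 called 304 (2.29%) higher and 299 (2.26%) lower. With both groups limited to 6000 to 10000 UMI, where medians were 8057 and 8175 UMI in members and 7746.5 and 7811 UMI in the others, 36 genes (0.304%) were called higher and 114 (0.963%) lower, and 2302 of the 2502 called genes tested there (92.0%) kept their direction.

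Among neural progenitor markers 12 of 14 tested were higher in members and none lower, with a median log2 fold change of 0.73 against -0.01 over all genes tested. DESeq2 called 9 of the 12, and 5 were called at 6000 to 10000 UMI. SOX2 itself had 367 and 379.8 CPM in members and 234 and 244 CPM in all other kept barcodes, a log2 fold change of 0.76 ± 0.11 (SE; edgeR, adjusted p = 2.1e-10). SOX1, a SOX2 relative that marks the early neural plate and tube, had 93.6 and 87.7 CPM in members and 38.6 and 36.1 CPM in all other kept barcodes, with a log2 fold change of 1.39 ± 0.17 (SE; edgeR, adjusted p = 8.9e-15). The level of SOX9 was 19.4 and 13.5 CPM in members and 18 and 15.3 CPM in all other kept barcodes, and that of PROM1 30.8 and 24.1 CPM in members and 29.1 and 22.1 CPM in all other kept barcodes, neither of them called. PAX6, NES, VIM and SOX21 were among the 12 that rose.

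The other named rises covered chromatin, replication and patterning genes. HMGA1, a chromatin-binding protein abundant in dividing embryonic cells, was the largest of them, at 481 and 497 CPM in members, against 157 and 174 CPM in all other kept barcodes, a log2 fold change of 1.67 ± 0.11 (SE; edgeR, adjusted p = 1.2e-50). IRX3, a homeodomain factor of the intermediate neural tube, had 103 and 101 CPM in members, against 38 and 35.4 CPM in all other kept barcodes, with a log2 fold change of 1.59 ± 0.16 (SE; edgeR, adjusted p = 3.6e-20). PCLAF, which binds the replication clamp PCNA, and DUT, which clears dUTP before DNA synthesis, rose by 1.59 and 1.43 on the log2 scale. The rise of PCLAF was 2.15 in replicate 1 and 0.95 in replicate 2. ZIC4 and PAX3, transcription factors of the dorsal neural tube, rose by 1.37 and 1.32. TTYH1, a tweety-family membrane protein of neural progenitors, FABP3, a fatty acid binding protein, and POMC, the precursor of several peptide hormones, rose by 1.47, 1.37 and 1.32. DESeq2 called 12 of the 12 named rises. At 6000 to 10000 UMI 8 of the 12 were called, without PCLAF, TTYH1, FABP3 and POMC.

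Markers of several classes of non-neural cells were lower in members. Of 3 endothelium markers tested 1 fell, and of 2 cardiomyocyte markers MYL7 fell and ACTC1 rose. DESeq2 called MYL7 alone of these, and the 6000 to 10000 UMI window none. All 6 erythroid markers, 5 of 5 tested trophoblast markers, 6 of 6 epithelial markers, 4 of 4 tested hepatic or yolk sac markers and 7 of 12 tested mesenchyme markers fell. DESeq2 called 4, 2, 1, 3 and 5 of these falls, and at 6000 to 10000 UMI 2, 1, 1, 1 and 1 were called. The gate limits collagen UMI in members alone, so the mesenchyme falls are not independent of it. Collagen barcodes summed to 8070 and 8789 CPM for mesenchyme, 27598.5 and 26175 CPM for hepatic or yolk sac and 9051 and 9061 CPM for epithelial markers. Their part in these falls was not tested. With equal collagen limits, in the second comparison, 2 of 7 mesenchyme markers fell. Of 3 hepatic or yolk sac markers 1 fell and 1 rose there. PRP1, a prolactin-related gene of the bovine placenta, had no UMI in members, against 109 and 22.4 CPM in all other kept barcodes, which makes it at least 37.4-fold lower if its absence is read as 3 UMI over the members of both libraries. PAG2, a pregnancy-associated glycoprotein gene, had 4.57 and 0.964 CPM in members and 150.1 and 43.3 CPM in all other kept barcodes. The embryonic globin HBE1 had 159 and 154 CPM in members and 3726 and 5698 CPM in all other kept barcodes, and its log2 fold change of -4.78 was -1.26 at 6000 to 10000 UMI. A second embryonic globin, HBZ, stood at 327 and 331 CPM in members and at 281 and 265 CPM in collagen barcodes, so its level in members was close to that in another class that should lack it. The remaining named falls were PAGE4, S100G, KLK1, SRGN and ANXA1, each with at most 7 UMI over all members; for PAGE4, with 1 UMI, the ratio was 195 (exact 95% interval 35.0 to 7703). For SRGN the difference was -6.66 in replicate 1 and -3.01 in replicate 2. DESeq2 called 7 of the 8 named falls, without PRP1, and 5 were called at 6000 to 10000 UMI, without PAGE4, KLK1 and PAG2.

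The second comparison was closer: SOX2-positive members, 84 and 105 barcodes, against the 832 and 1101 other SOX2-positive barcodes with the same R-spondin and collagen limits. The gate separates these groups by PTN and SFRP2 alone. Ribosomal protein RNA made up 20.2% and 20.7% of UMI in SOX2-positive members and 12.7% and 15.6% in other SOX2-positive barcodes, and mitochondrial RNA 0.282% and 0.252% in SOX2-positive members and 0.569% and 0.467% in other SOX2-positive barcodes. RNA of CRABP1, HMGA1 and dorsal to intermediate patterning genes was higher in SOX2-positive members, and RNA of NFIA, floor plate genes and 4 of 11 neuron markers was lower. Of 12055 genes tested, 1098 (9.11%) were higher and 839 (6.96%) lower in SOX2-positive members. DESeq2 called 220 (1.82%) higher and 81 (0.672%) lower. At 6000 to 10000 UMI, with medians of 8349 and 8241 UMI in SOX2-positive members and 7666.5 and 7819.5 UMI in the others, 25 (0.234%) were called higher and 54 (0.505%) lower, and 1744 of 1869 called genes (93.3%) kept their direction.

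CRABP1, a cytoplasmic retinoic acid binding protein, had the largest named rise, at 1884 and 4712 CPM in SOX2-positive members, against 1018 and 957 CPM in other SOX2-positive barcodes. Replicate 2 decided much of its size: the log2 difference was 1.10 in replicate 1 and 2.44 in replicate 2, and the fitted log2 fold change was 1.78 ± 0.22 (SE; edgeR, adjusted p = 5.6e-13). A few barcodes carried most of that RNA, since the top 13 of 124 members held 79.9% of the CRABP1 UMI in replicate 2, and DESeq2 did not call the gene. At 6000 to 10000 UMI the log2 fold change was 1.52.

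HMGA1 had 508 and 512 CPM in SOX2-positive members, against 186 and 200.4 CPM in other SOX2-positive barcodes, with a log2 fold change of 1.58 ± 0.13 (SE; edgeR, adjusted p = 7.4e-31). The value was 1.32 at 6000 to 10000 UMI. GLRA1, a glycine receptor subunit, had 65.9 and 74.1 CPM in SOX2-positive members, against 31.2 and 32.2 CPM in other SOX2-positive barcodes, with a log2 fold change of 1.32 ± 0.21 (SE; edgeR, adjusted p = 2.3e-08). Both genes were higher in SOX2-positive members in both libraries and at matched depth. APOE, a lipid carrier, rose by 1.34 on the log2 scale, the differences being 1.80 in replicate 1 and 0.87 in replicate 2. The other named rises were IRX3, TTYH1, PCLAF, POMC, DUT, ZIC4, FABP3 and HES5, between 1.34 and 1.47 on the log2 scale; that of PCLAF was 2.09 in replicate 1 and 0.64 in replicate 2, and that of DUT 1.71 in replicate 1 and 1.07 in replicate 2. Of 12 named rises DESeq2 called 10, without CRABP1 and PCLAF, and 7 were called at 6000 to 10000 UMI. HES5 itself had 265 and 197 CPM in SOX2-positive members and 90.9 and 113 CPM in other SOX2-positive barcodes; its difference was 1.75 in replicate 1 and 0.94 in replicate 2, and its log2 fold change of 1.16 at matched depth, from 118 and 80 UMI in SOX2-positive members and 218 and 466 UMI in other SOX2-positive barcodes, missed the threshold. Of 13 neural progenitor markers tested, 8 were higher in SOX2-positive members and none lower, of which DESeq2 called 5 and the 6000 to 10000 UMI window 3. The epithelial list held no fall here and 2 rises among 3 tested, KRT8 and KRT19. Neither was called by DESeq2 or at 6000 to 10000 UMI, and at 3000 to 10000 UMI 1 gene of the list was called lower.

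**Figure D2:**
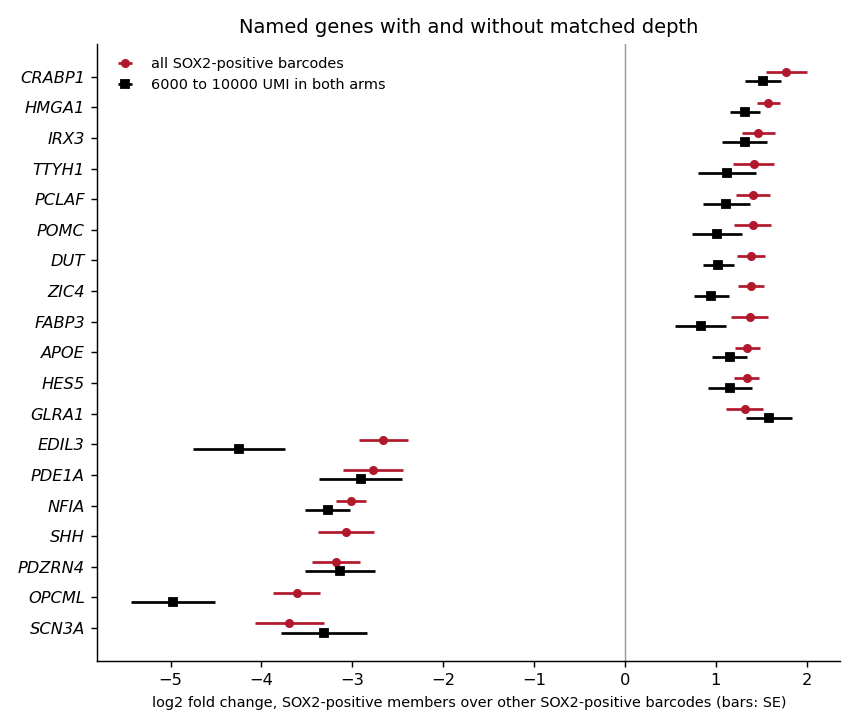
Log2 fold changes (horizontal axis) of named genes (rows) in SOX2-positive members over other SOX2-positive barcodes, for all barcodes (red circles) and for 6000 to 10000 UMI in both groups (black squares), with SE as bars. All plotted genes keep their side of 0 at matched depth; PENK is not drawn, and SHH has no square because neither had a UMI in SOX2-positive members in that range.

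NFIA, a transcription factor that switches progenitors towards glia, was lower in SOX2-positive members. Its level was 58.2 and 40.9 CPM in SOX2-positive members, against 386 and 508 CPM in other SOX2-positive barcodes, a log2 fold change of -3.01 ± 0.16 (SE; edgeR, adjusted p = 5.7e-70), and -3.27 at 6000 to 10000 UMI. An NFIA UMI was found in 19.8% and 13.7% of members, against 44.5% and 51.7% of other SOX2-positive barcodes, and after thinning in 10.2% and 6.61% of members, against 30.9% and 36.7% of other SOX2-positive barcodes. Collagen barcodes showed NFIA in 25.0% and 36.9%, and in 6.25% and 18.5% after thinning, so the thinned shares of members lay within the range of that class. Its relative NFIB fell too, with a log2 fold change of -1.15, which was -0.70 in replicate 1 and -1.65 in replicate 2.

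The other named falls were OPCML, SCN3A, PDZRN4, PENK, PDE1A and EDIL3. OPCML, a cell adhesion molecule, had 14.2 and 8.85 CPM in SOX2-positive members, against 136 and 176 CPM in other SOX2-positive barcodes, a log2 fold change of -3.61 ± 0.26 (SE; edgeR, adjusted p = 3.2e-40). SCN3A, a sodium channel subunit, and PDZRN4, a PDZ and RING domain protein, fell, with log2 fold changes of -3.69 and -3.18. PENK, the proenkephalin gene, had 2 UMI in SOX2-positive members and 810 in other SOX2-positive barcodes, a ratio of 53.8 (exact 95% interval 14.8 to 445). PDE1A, a phosphodiesterase, and EDIL3, a matrix protein, changed by -2.77 and -2.66. All 8 named falls were also called at 6000 to 10000 UMI, and DESeq2 called 7, without PENK.

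SHH, the Hedgehog ligand of the floor plate, had 6.46 and 9.96 CPM in SOX2-positive members, against 70.7 and 85.7 CPM in other SOX2-positive barcodes, a log2 fold change of -3.07 ± 0.31 (SE; edgeR, adjusted p = 4.9e-20). At 6000 to 10000 UMI it had 0 UMI in SOX2-positive members and 90 and 252 UMI in other SOX2-positive barcodes. All 7 floor plate markers tested were lower in SOX2-positive members, with a median log2 fold change of -2.54 against -0.00 over all genes tested. FOXA2, the floor plate regulator, had 89.2 and 121 CPM in SOX2-positive members and 283 and 286 CPM in other SOX2-positive barcodes, and NTN1, an axon guidance protein made there, had 12.9 and 11.1 CPM in SOX2-positive members and 78.5 and 78.5 CPM in other SOX2-positive barcodes. DESeq2 called 4 of the 7 falls, and 4 were called at matched depth.

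**Figure D3:**
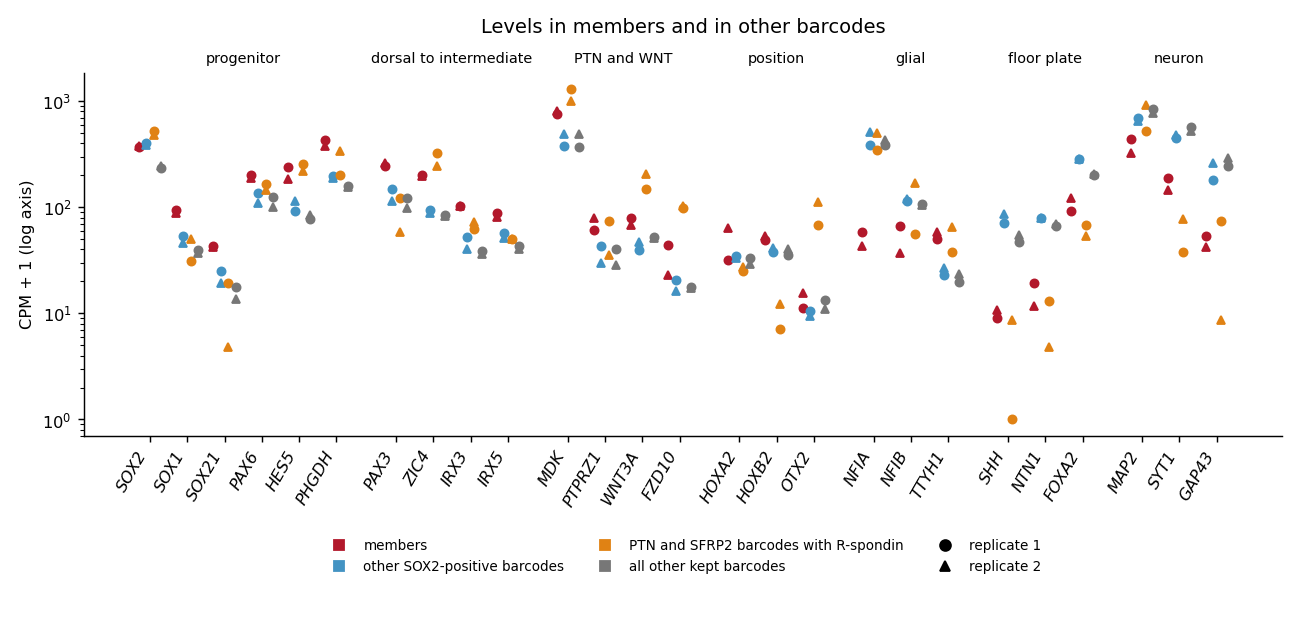
Levels of single genes as CPM + 1 on a log axis (vertical), by gene (horizontal, in 7 functional groups), in members, other SOX2-positive barcodes, R-spondin barcodes with PTN and SFRP2, and all other kept barcodes. Circles are replicate 1 and triangles replicate 2; in HES5, PHGDH, PAX3 and IRX3 members lie above both broad groups, and in NFIA, SHH and NTN1 below them.

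Dorsal and intermediate patterning genes were higher in SOX2-positive members. PAX3 had 243 and 271 CPM in SOX2-positive members, against 147 and 115 CPM in other SOX2-positive barcodes, and ZIC4 had 212 and 209 CPM in SOX2-positive members, against 93.5 and 88.2 CPM in other SOX2-positive barcodes. PAX6 and IRX5, which mark the intermediate tube together with IRX3, had 207 and 198 CPM in SOX2-positive members and 134 and 109 CPM in other SOX2-positive barcodes, and 90.5 and 88.5 CPM in SOX2-positive members and 56.2 and 50.5 CPM in other SOX2-positive barcodes. Of the dorsal list 3 of 6 tested were higher and none lower, and of the intermediate list 3 of 3. Of 3 ventral genes tested, 2 fell, NKX6-1 and FOXA2, the second of which is also on the floor plate list. At matched depth PAX3, ZIC4, PAX6 and IRX3 were called, and IRX5 was not. Of the 2 ventral falls FOXA2 alone was called there, and DESeq2 called 1. Of the 3 rises in each of the dorsal and intermediate lists DESeq2 called 2.

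PAX3 and PAX6 both had a UMI in 51.5% and 49.2% of members, against 20.7% and 18.5% of other SOX2-positive barcodes, and neither had one in 14.9% and 15.3% of members, against 45.0% and 52.9% of other SOX2-positive barcodes. After thinning, at least 1 of these genes was found in 55.1% and 50.4% of members, against 37.9% and 30.9% of other SOX2-positive barcodes and 0% and 1.54% of collagen barcodes. Both were then found in 13.3% and 11.6% of members and 7.96% and 6.33% of other SOX2-positive barcodes. At equal depth the shares were higher in members in both libraries, and PAX3 alone gave 37.8% and 36.4% of members, against 20.7% and 18.6% of other SOX2-positive barcodes.

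HOX genes, which mark the hindbrain and spinal cord, had UMI without OTX2, a forebrain and midbrain factor, in 56.4% and 62.9% of members, against 35.9% and 39.1% of other SOX2-positive barcodes. OTX2 without HOX was found in 3.96% and 3.23% of members and 2.40% and 2.18% of other SOX2-positive barcodes, and neither in 36.6% and 29.8% of members. After thinning, HOX without OTX2 was found in 12.2% and 30.6% of members and 15.4% and 17.3% of other SOX2-positive barcodes, so at equal depth the share in members was lower in replicate 1 and higher in replicate 2. HOXA2, the HOX gene expressed furthest forward in the neural tube, had 33.6 and 66.4 CPM in SOX2-positive members and 34 and 32.2 CPM in other SOX2-positive barcodes, the log2 difference being 0.20 in replicate 1 and 1.17 in replicate 2. HOXA2 and HOXA3 rose among 5 HOX genes tested, but DESeq2 and the 6000 to 10000 UMI window called neither, and 17 of the 30 in the table had no UMI in members. SIX6, an eye and hypothalamus factor and the one call among 4 forebrain genes tested, had 54.3 and 32.1 CPM in SOX2-positive members and 13.5 and 10.1 CPM in other SOX2-positive barcodes, a log2 fold change of 2.02 ± 0.27 (SE; edgeR, adjusted p = 8.8e-12). OTX2 levels were 9.05 and 15.5 CPM in SOX2-positive members and 9.43 and 8.35 CPM in other SOX2-positive barcodes, with no call.

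Serine, glycine and one-carbon enzymes formed another group that was higher. Of 12 tested, 7 were higher in SOX2-positive members and none lower, with a median log2 fold change of 0.56 against -0.00 over all genes. PHGDH had 459 and 373 CPM in SOX2-positive members, against 196 and 187 CPM in other SOX2-positive barcodes, a log2 fold change of 1.29 ± 0.12 (SE; edgeR, adjusted p = 5.8e-22). PSAT1 and PSPH, the next enzymes of serine synthesis, rose by 0.75 and 0.49, that of PSPH being 0.70 in replicate 1 and 0.25 in replicate 2. SHMT2, which turns serine into glycine in mitochondria, rose by 0.96, while MTHFD2, a mitochondrial folate enzyme, had 34.9 and 29.9 CPM in SOX2-positive members and 43.8 and 34.1 CPM in other SOX2-positive barcodes, with no call. At matched depth PHGDH alone of these 7 was called, and DESeq2 called 2 of them.

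Of 20 S phase genes 9 were higher and none lower in SOX2-positive members, with a median log2 fold change of 0.43. MCM5, a subunit of the replicative helicase, had 168 and 141 CPM in SOX2-positive members, against 77.4 and 77.3 CPM in other SOX2-positive barcodes, a log2 fold change of 1.16 ± 0.16 (SE; edgeR, adjusted p = 3e-11), and was the one S phase gene called at matched depth, while DESeq2 called 3 of the 9. The list for G2 and mitosis, also 20 genes, had 5 rises, 1 of them called by DESeq2, and 1 fall, that of ASPM, with a median of 0.08. The mitotic genes CENPF and TOP2A had log2 fold changes of 0.70 and 0.38, which were -0.01 and 0.05 at 6000 to 10000 UMI, and none of the 20 was called there. For CENPF the difference over all depths was 0.34 in replicate 1 and 1.04 in replicate 2, and for TOP2A 0.14 in replicate 1 and 0.58 in replicate 2.

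**Figure D4:**
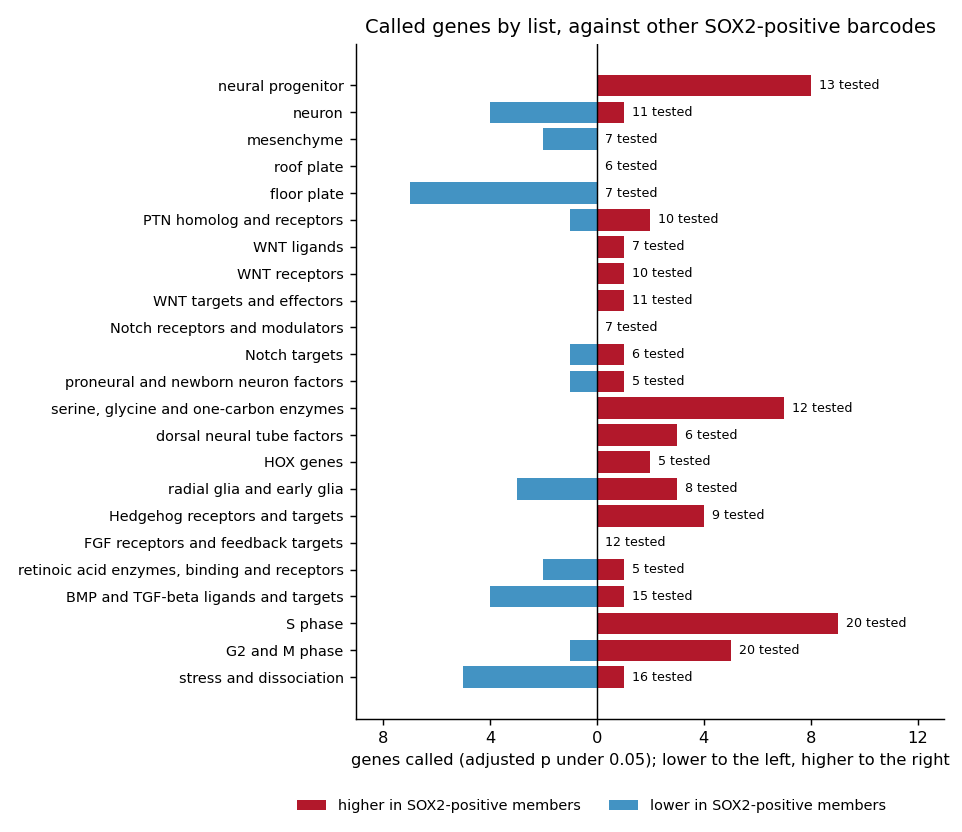
Number of called genes per list (bars; lower to the left, higher to the right of 0) in SOX2-positive members against other SOX2-positive barcodes, with the number tested beside each bar. Progenitor (8 of 13), serine and one-carbon (7 of 12) and S phase (9 of 20) lists hold rises without falls, and the floor plate list (7 of 7) holds falls alone.

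Genes around PTN itself were examined next. MDK (midkine), the close relative of PTN, had 795 and 821 CPM in SOX2-positive members, against 380.4 and 486 CPM in other SOX2-positive barcodes, a log2 fold change of 1.08 ± 0.16 (SE; edgeR, adjusted p = 6.1e-10), and 0.57 at 6000 to 10000 UMI, where it was not called. PTPRZ1, a receptor phosphatase that binds PTN, had 58.2 and 84.1 CPM in SOX2-positive members, against 42.4 and 28.9 CPM in other SOX2-positive barcodes; the log2 difference was 0.66 in replicate 1 and 1.66 in replicate 2. ALK, a receptor kinase described as a PTN receptor, was lower, at 20.7 and 6.64 CPM in SOX2-positive members and 31.6 and 42.2 CPM in other SOX2-positive barcodes, mostly through replicate 2, with differences of -0.39 in replicate 1 and -2.44 in replicate 2. The heparan sulphate carrier SDC2 had 172 and 169 CPM in SOX2-positive members and 187 and 182 CPM in other SOX2-positive barcodes, and nucleolin (NCL) 662 and 954 CPM in SOX2-positive members and 763 and 794 CPM in other SOX2-positive barcodes, with no call for either. Of 10 genes of this list, 2 were higher and 1 lower; DESeq2 called MDK alone, and none was called at 6000 to 10000 UMI.

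WNT genes around SFRP2 were examined as well. WNT3A, a dorsal midline ligand, had 86.6 and 67.5 CPM in SOX2-positive members, against 38.3 and 46 CPM in other SOX2-positive barcodes, a log2 fold change of 1.03 ± 0.20 (SE; edgeR, adjusted p = 7.5e-06), with differences of 1.38 in replicate 1 and 0.68 in replicate 2. The receptor gene FZD10 and the WNT effector TCF7L1 had log2 fold changes of 1.04 ± 0.27 (SE; edgeR, adjusted p = 0.0023) and 0.47 ± 0.14 (SE; edgeR, adjusted p = 0.011). These were the only calls among 7 ligands, 10 receptors, 4 antagonists and 11 targets tested. Over all genes tested 9.11% were called higher and 6.96% lower. LEF1, a target and effector, had 115 and 92.9 CPM in SOX2-positive members and 162 and 142 CPM in other SOX2-positive barcodes, and the relative SFRP1 had 32.3 and 36.5 CPM in SOX2-positive members and 44.8 and 28.9 CPM in other SOX2-positive barcodes, without a call. The FZD10 difference was 1.37 in replicate 1 and 0.58 in replicate 2, and its fitted value was 0.04 at 6000 to 10000 UMI, and DESeq2 called no gene of these 4 lists.

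Of the Notch genes, HES5 rose, as given above, whereas HES1, a second Notch-driven repressor, fell to 84 and 81.9 CPM in SOX2-positive members, against 157 and 143 CPM in other SOX2-positive barcodes, a log2 fold change of -0.68 ± 0.16 (SE; edgeR, adjusted p = 0.00069), also not called by DESeq2 or at 6000 to 10000 UMI. DLL3, a Notch ligand of newborn neurons, rose by 1.28, with differences of 0.72 in replicate 1 and 1.69 in replicate 2, and was called neither by DESeq2 nor at 6000 to 10000 UMI. It had a UMI in 3.57% and 11.4% of SOX2-positive members and 4.33% and 3.72% of other SOX2-positive barcodes, and after thinning in 1.19% and 3.92% of SOX2-positive members and 2.70% and 1.73% of other SOX2-positive barcodes. None of 7 receptors and modulators tested was called; NOTCH1 had 23.3 and 29.9 CPM in SOX2-positive members and 27.5 and 28 CPM in other SOX2-positive barcodes.

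Of 11 neuron markers tested, 4 fell (ONECUT2, MAP2, SYT1 and GAP43) and 1, STMN2, rose. DESeq2 called 3 of the falls, and SYT1 alone was called at 6000 to 10000 UMI. At least 2 UMI of ELAVL3, ELAVL4, DCX, TUBB3 and STMN2 together were found in 68.3% and 71.0% of members, against 49.4% and 49.0% of other SOX2-positive barcodes, and after thinning in 27.6% and 23.1% of members, against 25.7% and 20.9% of other SOX2-positive barcodes. GAP43, a growth cone protein, had 53 and 32.1 CPM in SOX2-positive members, against 180.5 and 259.9 CPM in other SOX2-positive barcodes, a difference of -1.54 in replicate 1 and -2.86 in replicate 2. The level of STMN2, a tubulin-binding protein of growing axons, was 436 and 353 CPM in SOX2-positive members and 305 and 329 CPM in other SOX2-positive barcodes; its log2 fold change of 0.48 (0.73 in replicate 1 and 0.24 in replicate 2) was -0.13 at matched depth. In the first comparison, 9 of 12 such markers were lower in members than in all other kept barcodes and none was higher; DESeq2 called 6 of the falls, and 4 were called at 6000 to 10000 UMI. Of 8 radial glia genes tested, FABP7, PTPRZ1 and TTYH1 rose and TNC, NFIA and NFIB fell; DESeq2 called 1 rise and 2 falls, and at 6000 to 10000 UMI 0 rises and 2 falls were called.

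Hedgehog components other than the ligand were higher or not called. BOC and GAS1, coreceptors for SHH, and GLI2 and GLI3, its transcription factors, were higher among 9 genes tested, and none was lower. DESeq2 called 2 of these rises, and BOC alone was called at 6000 to 10000 UMI. GLI3, which acts mainly as a repressor, had 423 and 389 CPM in SOX2-positive members, against 319.5 and 241 CPM in other SOX2-positive barcodes, a log2 fold change of 0.73 ± 0.13 (SE; edgeR, adjusted p = 1.1e-06). PTCH1, the receptor and a transcriptional target of the pathway, had 156 and 156 CPM in SOX2-positive members and 182 and 160.5 CPM in other SOX2-positive barcodes, a log2 fold change of 0.05 ± 0.14 (SE; edgeR, adjusted p = 0.87), with no call. Of 5 retinoic acid genes tested, CRABP1 rose and RARB, a retinoic acid receptor and target, fell, with log2 fold changes of 1.78 and -2.05. DHRS3, a retinaldehyde reductase, had no UMI in SOX2-positive members and also fell. DESeq2 called 1 of these 2 falls, and neither was called at 6000 to 10000 UMI. Among 15 BMP and TGF-beta genes 1 rose (ID3) and 4 fell (BMPR2, ID4, SMAD6 and TGFB2), of which DESeq2 called 1 fall and the 6000 to 10000 UMI window none, and none of 12 FGF genes was called. Of 16 genes of the stress and dissociation list, which papain digestion can raise, 1 was higher and 5 were lower, FOS at 158 and 148 CPM in SOX2-positive members and 236 and 268 CPM in other SOX2-positive barcodes; DESeq2 and the 6000 to 10000 UMI window called none of them.

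The third comparison set members against the 16 and 25 barcodes that passed the PTN, SFRP2 and collagen limits but held at least 4 R-spondin UMI, called R-spondin barcodes. Their median depth was 10399 and 10474 UMI, and 23.0% and 27.4% of it was ribosomal protein RNA. Of 8298 genes tested, 339 (4.09%) were higher and 429 (5.17%) lower in members. DESeq2 called 6 (0.0723%) higher and 109 (1.31%) lower, and at 6000 to 10000 UMI 6 (0.106%) were called higher and 24 (0.426%) lower. Of roof plate genes 2 of 5 tested were lower in members, of WNT ligands 3 of 5 and of BMP and TGF-beta genes 5 of 15, and none of these lists held a rise. DESeq2 called 1, 2 and 1 of these falls, and none was called at 6000 to 10000 UMI, where LMX1A and WNT2B had too few UMI to be tested. SPARCL1, KCNC2 and NFIA were also lower in members, and PAX3 was higher. LMX1A, a roof plate regulator, had 7.99 and 0.964 CPM in members, against 122 and 98.6 CPM in the R-spondin barcodes. WNT2B, a dorsal midline ligand, had 9.13 and 0.964 CPM in members, against 109 and 102 CPM in the R-spondin barcodes, and OTX2 had 10.3 and 14.5 CPM in members, against 66.9 and 110.0 CPM in the R-spondin barcodes. Both libraries gave lower values in members for all of these, with log2 fold changes between -4.87 for LMX1A and -3.03 for OTX2 (edgeR, adjusted p = 1.8e-18 and 3e-09).

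SPARCL1, a matrix protein, had 19.4 and 11.6 CPM in members, against 517 and 379 CPM in the R-spondin barcodes, and the potassium channel gene KCNC2 had 4.57 and 11.6 CPM in members, against 292 and 337 CPM in the R-spondin barcodes. The named falls ended with LIM2, a lens membrane protein, at 2.28 and 1.93 CPM in members and 60.8 and 68.3 CPM in the R-spondin barcodes. NFIA had 57.1 and 42.4 CPM in members, against 347 and 504 CPM in the R-spondin barcodes, and the R-spondin barcodes lay within the range of other SOX2-positive barcodes, 386 and 508 CPM, in replicate 2 and just below it in replicate 1. PAX3 had 243 and 258 CPM in members, against 122 and 56.9 CPM in the R-spondin barcodes, a log2 fold change of 1.39 ± 0.28 (SE; edgeR, adjusted p = 4.2e-05), with differences of 0.83 in replicate 1 and 1.89 in replicate 2; DESeq2 and both depth windows did not call it. WNT3A and FZD10, higher in members in the second comparison, were lower here, at 78.8 and 67.5 CPM in members and 146 and 205 CPM in the R-spondin barcodes, and 43.4 and 22.2 CPM in members and 97.3 and 102 CPM in the R-spondin barcodes. DESeq2 and the 6000 to 10000 UMI window called neither. MDK and ZIC4 were lower here too, with log2 fold changes of -0.75 and -0.69 (edgeR, adjusted p = 0.00072 and 0.028). Of 14 progenitor markers tested, SOX2, NES and VIM fell and SOX21 rose, and VIM changed by -0.96. The progenitor list summed to 6195 and 5960 CPM in members and 7700 and 8099 CPM in the R-spondin barcodes. DESeq2 called MDK and VIM alone of these, and the 6000 to 10000 UMI window none.

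Several rises rested on no UMI in the R-spondin barcodes, whose summed depth was 164420 and 263722 UMI. CEP152, a centriole protein, and CNIH3, an AMPA receptor auxiliary subunit, had none there and were at least 7.31-fold and 7.39-fold higher in members, if that absence is read as 3 UMI over both libraries. GRIA4, FRMD5 and DNM3 had 1 UMI each in R-spondin barcodes, against 164, 118 and 112 UMI in members; for GRIA4 the ratio was 36.7 (exact 95% interval 6.50 to 1458). HES5, PHGDH and SOX2 had log2 fold changes of -0.38 ± 0.23, 0.35 ± 0.21 and -0.61 ± 0.19 (SE), of which SOX2 alone was called (edgeR, adjusted p = 0.024), though neither by DESeq2 nor at 6000 to 10000 UMI. DESeq2 called 0 of the 6 named rises and 4 of the 4 named falls, so the rises depend on the tool. At 6000 to 10000 UMI GRIA4 was the one named rise called, with 2 of the 4 named falls.

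GFP, the green fluorescent protein gene, was counted along with the bovine genes, and the labels do not say which cells carry it. Its level was 1927 and 1765 CPM in members, against 1610.5 and 1795 CPM in all other kept barcodes, a log2 fold change of 0.23 ± 0.17 (SE; edgeR, adjusted p = 0.40). Against other SOX2-positive barcodes the value was -0.11 ± 0.21 (SE; edgeR, adjusted p = 0.80), and against R-spondin barcodes -0.32 ± 0.17 (SE; edgeR, adjusted p = 0.22). No difference was called, and the sign in the first comparison turned negative at matched depth (-0.36). GFP UMI were found in 93.1% and 91.1% of members and in 77.5% and 77.4% of all other kept barcodes, and after thinning in 85.7% and 86.0% of members and in 63.5% and 65.9% of all other kept barcodes. Collagen barcodes had 59.0 and 42.5 CPM and 0% and 12.3% after thinning.

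Members also varied among themselves. MDK was higher at 4 or more PTN UMI per barcode than at 2 or 3, and NFIA was lowest at 6 or more. MDK had 474 and 607 CPM in members with 2 or 3 PTN UMI, 949.9 and 1031 CPM at 4 or 5, and 958 and 953 CPM at 6 or more. NFIA had 102 and 58.0 CPM, then 26.4 and 54.7 CPM, then 22.8 and 21.1 CPM in the same groups. Median depth was 7703 and 7538 UMI, 9257 and 9149 UMI, and 9769.5 and 10327.5 UMI, and its part in these trends was not tested. PTN is the gene that chose the members, and these levels are a description.

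**Figure D5:**
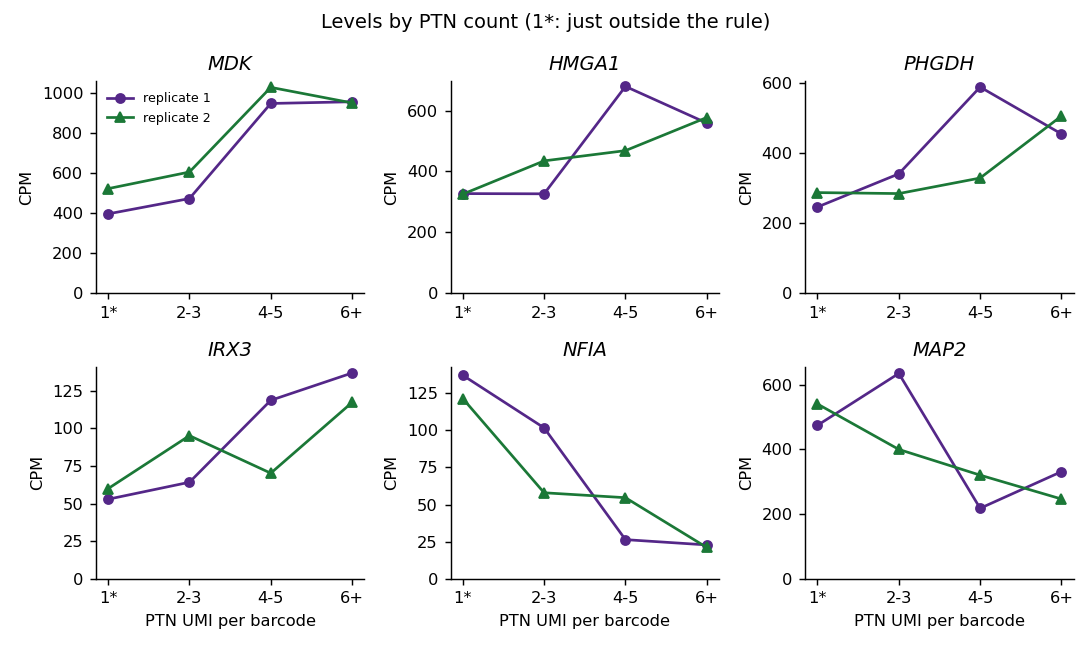
CPM (vertical axes, from 0) of 6 genes by PTN UMI per barcode (horizontal axes) in members with 2 or 3, 4 or 5 and 6 or more PTN UMI, and in barcodes with 1 PTN UMI that otherwise pass (1*). Purple circles are replicate 1 and green triangles replicate 2; NFIA is highest at 1 UMI (137 and 121 CPM) and lowest at 6 or more (22.8 and 21.1 CPM).

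Barcodes at the edges of the gate differed by degree. The 29 and 47 members with just 2 PTN UMI had 114 and 154 CPM of HES5, and the 64 and 90 barcodes that failed with 1 PTN UMI had 250.2 and 219 CPM. PHGDH had 237 and 282 CPM in those members and 245 and 286 CPM in the barcodes with 1 PTN UMI. Members with 1 SFRP2 UMI had 173 and 119.9 CPM of HES5, and barcodes with no SFRP2 UMI that otherwise passed had 41.2 and 73.2 CPM. HES5 and PHGDH were thus at least as high just outside the PTN limit as just inside it, while HES5 was lower just outside the SFRP2 limit. The other limits had few barcodes near them: 14 and 9 members held 2 or 3 R-spondin UMI, and 4 and 5 barcodes failed with 4 or 5, while 0 and 1 members held 5 to 9 collagen UMI, and 0 and 3 barcodes failed with 10 to 14.

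Single genes were unevenly spread over members. HES5 had a UMI in 43.6% and 43.5% of members, and the top 11 and 13 members held 62.7% and 54.0% of its UMI. PHGDH was more even, with a UMI in 75.2% and 77.4% of members and 44.3% and 37.8% of its UMI in the top 11 and 13. In collagen barcodes HES5 had a UMI in 6.25% and 7.69%.

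Between the libraries, members differed in PCDH9, a protocadherin, at 161 and 21.2 CPM, in KCNB2, a potassium channel gene, at 127 and 40.5 CPM, and in CRABP1, at 1734 and 4474 CPM. In all other kept barcodes PCDH9 had 592 and 377 CPM, KCNB2 157 and 126 CPM, and CRABP1 1120 and 1951 CPM. These genes were chosen after their values were seen, and with 1 library on each side there is no test. PTTG1, the mitotic securin, had 103 and 184 CPM in members and 58.2 and 71.0 CPM in all other kept barcodes.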

How the data were processed

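Single-cell RNA was measured in 2 libraries of 1 group of day 25 bovine chimeric embryos. The values are raw UMI counts per gene and barcode as deposited by the authors, with 1973 and 2464 barcodes, 17846 genes and 11182089 and 15427708 UMI. The submitters' processing notes name the build bosTau9 and, as tools, Seurat 4.3.0, R 4.1.2 and Cell Ranger, without settings. No columns of other samples were present (0). Barcodes with at least 1000 UMI and 500 genes were kept, and doublets were not removed.

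UMI were summed per library and group, giving 4 sums per comparison, and tested with edgeR 4.0.16 in R 4.3.3 (TMM, filterByExpr, robust quasi-likelihood fit, library as a term, Benjamini-Hochberg adjustment over all genes tested, threshold 0.05). The library term keeps apart groups that share a library. The fit leaves 1 residual degree of freedom, and the fitted prior degrees of freedom were infinite. Genes used by the gate were left out of the tests, SOX2 too in the second comparison. Levels are plain CPM, and fold changes come from the TMM-scaled fit, so they can differ. In the second comparison the scaling factors were 0.946 and 0.935 for SOX2-positive members and 1.10 and 1.03 for the others. Small fold changes can thus have the opposite sign to the CPM, as for PTCH1. The fits were tested on simulated data. DESeq2 1.42.0, no filter, no library term, depth windows, other gates and single libraries were alternatives.

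The members and all gene lists, HES5 and PHGDH included, were chosen with earlier results of these data known. Named genes were the 12 largest rises and 8 largest falls (6 and 4 in the third comparison) among called genes that reached 50 CPM in the higher group and moved the same way in each library, plus GFP, SOX2, HES5 and PHGDH, and list members as examples; some genes that met this rule are not reported here. Shares were compared after thinning to 2000 UMI with numpy 2.4.6, and intervals (95%) are exact Clopper-Pearson from scipy 1.17.1. No sequences or coordinates are given, since no genome of the build was used here.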

Additional observations from a re-analysis of the deposited data

How the results depend on the processing

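Limits first: 2 libraries of 1 group, 1 residual degree of freedom and a depth gap between members and others bound every comparison. The mean share of 5.42% was 1.88% under a stricter gate (at least 4 PTN and 2 SFRP2 UMI), 9.10% under a looser one, 1.21% after thinning, 5.84% among barcodes of at least 2000 UMI and 5.30% at 3000 to 10000 UMI; single libraries gave 5.35 to 5.48%. Against all other kept barcodes, genes called higher and lower numbered 304 and 299 with DESeq2, 173 and 341 at 3000 to 10000 UMI, and 36 and 114 at 6000 to 10000 UMI. Without the library term, that is with no replicate block, 793 were higher and 954 lower. In the SOX2-positive comparison these were 220 and 81 with DESeq2, 147 and 153, and 25 and 54 in the same windows, and 1025 and 777 with no replicate block. Against R-spondin barcodes they were 6 and 109 with DESeq2, 8 and 29 at 3000 to 10000 UMI, 6 and 24 at 6000 to 10000 UMI, 44 and 107 under the stricter gate, 591 and 706 under the looser gate, 279 and 281 with no filter, and 292 and 371 with no replicate block. Fewer barcodes and UMI enter the windows, and the cause of the lower counts was not tested.

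The log2 fold change of GFP against all other kept barcodes turned to -0.36 at 6000 to 10000 UMI and -0.13 at 3000 to 10000 UMI, and in the SOX2-positive comparison to 0.10 under the stricter gate. That of STMN2 was 0.076 against all other kept barcodes under the stricter gate and -0.13 in the SOX2-positive comparison at 6000 to 10000 UMI. In the SOX2-positive comparison VIM was -0.059 at 6000 to 10000 UMI, TOP2A -0.070 at 3000 to 10000 UMI, and CENPF -0.036 and -0.0060 in the 3000 to 10000 and 6000 to 10000 UMI windows. Of the genes given in the text, counted once per comparison, 43 lost their call with DESeq2, 48 and 76 in the wider and narrower windows, and 11 with no replicate block. Each library alone gives values without a test. When replicate 1 and replicate 2 were left out, 10 and 15 values moved, and no called gene changed sign. Sign changes of genes without a call were not counted. PHGDH against R-spondin barcodes was such a gene, with 0.93 in replicate 1 and -0.064 in replicate 2. Removing barcodes found in both libraries ended 0 of these calls. That removal and the 6000 to 10000 UMI window were chosen after seeing the data.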
